A study of Mus musculus with 26 samples.

Results

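Foxp3R397W Treg were compared with WT Treg sorted in the same way, by RNA-seq of 2 libraries of each, which are 4 of the 26 libraries of the series. The 4 libraries were taken by their labels alone, and all genes were examined. The labels describe both groups as CD4+hCD2+GFP- Treg of C57BL6/J mice, taken from spleen and lymph nodes, and the mice carry both an hCD2-tagged and a GFP-tagged Foxp3 allele. The mutant genotype is Foxp3R397W-IRES-hCD2/Foxp3-IRES-GFP and that of its controls is Foxp3WT-IRES-hCD2/Foxp3-IRES-GFP, so the GFP-tagged allele is present in both. The gene is X-linked, so a cell uses only one allele, and the sort keeps cells that report the hCD2-tagged allele and not the GFP-tagged one. The same mice could therefore also hold GFP+ Treg, which were not sequenced here. The cells were freshly sorted, and neither age nor sex of the mice is given in the sources used here.

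Other groups were used for comparison, with 2 libraries each. Foxp3KO Treg carry Foxp3fs101-IRES-hCD2 over Foxp3-IRES-GFP and have their own WT Treg with the genotype of the R397W controls. BATFcKO Treg are YFP+hCD2- cells of Foxp3-IRES-YFPCre/Foxp3-IRES-hCD2 mice with Batf flox/flox, in which the Foxp3 locus drives Cre, with WT Treg YFP as controls. BATFKO Treg are hCD2+ cells of Foxp3-IRES-hCD2 mice with germline Batf-/-, set against WT Treg of Foxp3-IRES-hCD2 mice. Sorted effector Treg (eTreg, CCR7lo), central Treg (cTreg, CCR7hi CD44lo), both gated on other surface markers as well, effector T cells (Teff) and naive T cells (Tnaive) came from Foxp3-IRES-hCD2 mice. No control library is shared between these comparisons. Nothing says whether libraries of a group came from separate mice. P-values measure the spread between libraries within groups, estimated from all 26 libraries together, and that spread may be technical.

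Regulatory T cells (Treg) are CD4 T cells that restrain other immune cells, and Foxp3, a forkhead transcription factor, marks and maintains them. Foxp3 works with partner factors to raise Treg genes such as those of the high-affinity IL-2 receptor and CTLA-4, and to hold down cytokine and naive T cell genes. R397W replaces arginine with tryptophan in the forkhead DNA-binding domain, and the corresponding human substitution has been described in IPEX, an inherited autoimmune disease caused by FOXP3 mutations. Effector Treg are the activated, tissue-homing form of these cells and depend on BATF, an AP-1 family factor.

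The changed codon is shown in its surroundings, since it is the only labelled difference between both groups. In the reference genome (GRCm38, GENCODE M21), the R397W codon of Foxp3 lies at chrX:7592942-7592944 on the plus strand, in exon 14 of 14 of a transcript with 429 codons. The 63 bases from 7592912 to 7592974 are coding sequence, with the arginine codon in capitals:
Foxp3: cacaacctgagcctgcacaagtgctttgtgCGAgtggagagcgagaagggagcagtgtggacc
The files hold gene counts, so the codon used by the mutant libraries could not be read.

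Foxp3 transcript was close to its control level in the mutant cells. Levels in CPM (the read count scaled by library size and composition) were 359 and 343 in Foxp3R397W Treg, against 452 and 380 in WT Treg. Both mutant libraries were below both WT libraries, but the log2 change of -0.25 ± 0.15 (SE) did not pass (edgeR quasi-likelihood adjusted p = 0.476). In Foxp3KO Treg the same gene had 109 and 113 CPM, against 348 and 326 CPM in their WT Treg, a log2 change of -1.60 ± 0.15 (edgeR adjusted p = 2.03e-06). In sorted conventional cells it had 0.293 and 0.274 CPM in Teff and 2.34 and 3.20 CPM in Tnaive. A missense allele leaves the transcript in place, so Foxp3 level does not itself check the label.

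The cells carried the defining transcripts of CD4 T cells and of Treg, but Treg markers other than Foxp3 stood below their WT levels. Il2ra, Ctla4, Ikzf2 and Lrrc32 were all detected and all lower in both mutant libraries, with values given below. Lrrc32 had 85.8 and 112 CPM in Foxp3R397W Treg, against 440 and 395 CPM in WT Treg. Cd3e, a T cell receptor signalling chain, had 866 and 789 CPM in Foxp3R397W Treg and 818 and 762 CPM in WT Treg. Cd4 had 933 and 917 CPM in Foxp3R397W Treg and 813 and 718 CPM in WT Treg. Of 13 B cell markers in the table, summed levels were 31.5 and 23.3 CPM in Foxp3R397W Treg, against 74.1 and 71.6 CPM in WT Treg. Pax5 had 0 reads in all 4 libraries. The 18 myeloid and dendritic markers summed to 89.0 and 91.1 CPM in Foxp3R397W Treg and to 115 and 98.0 CPM in WT Treg, and Itgax had at most 1 read. The 13 CD8 and NK markers summed to 27.0 and 23.4 CPM in Foxp3R397W Treg and to 36.3 and 34.5 CPM in WT Treg, with Ncr1 at 0 reads and Cd8a at most at 5 reads. Of 10 erythroid and platelet markers, 8 had 0 reads in all 4 libraries, and of 13 stromal markers 5 did, Col3a1 and Pdgfra among them, and the 13 summed to 239 and 238 CPM in Foxp3R397W Treg and to 189 and 208 CPM in WT Treg.

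Library totals were 6036966 and 6831764 reads in Foxp3R397W Treg and 6398174 and 6117078 reads in WT Treg. The mutant pair differed more between its libraries than the WT pair. Of 8496 genes with a mean of at least 10 CPM in Foxp3R397W Treg, 59 were over 2-fold apart between both libraries, against 10 of 8557 in WT Treg. The first mutant library was the higher one for Maf, Tigit, Il21 and Il1r1, which are described below. A list of 19 dissociation stress genes summed to 7046 and 12070 CPM in Foxp3R397W Treg and to 9743 and 11640 CPM in WT Treg, and none of them passed the test.

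In Foxp3R397W Treg, most Treg core genes and many effector Treg genes fell, while many naive, central and Th17 genes rose. Of 12227 tested genes, 267 rose and 482 fell in Foxp3R397W Treg (edgeR quasi-likelihood test, Benjamini-Hochberg adjusted p under 0.05 over all tested genes). These are 2.18% and 3.94% of the tested genes, or 6.13% in either direction, and they are the background against which lists are read below. The change was at least 2-fold for 133 of the genes that rose and for 289 of those that fell, and at least 4-fold for 73 and 140 of them. The median size of change was 0.99 on the log2 scale among genes that rose and 1.21 among genes that fell. The counts of genes that rose and fell were 164 and 233 without Foxp3R397W library 1, 194 and 186 without Foxp3R397W library 2, 109 and 213 without WT library 3, and 122 and 264 without WT library 4. All of the called genes had both mutant libraries on one side of both WT libraries, as did 23.8% of tested genes upward and 26.3% downward. An exact permutation test of 2 libraries against 2 cannot go below p = 0.333 (two-sided), so single genes rest on the fit across all genes and libraries.

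**Figure D1:**
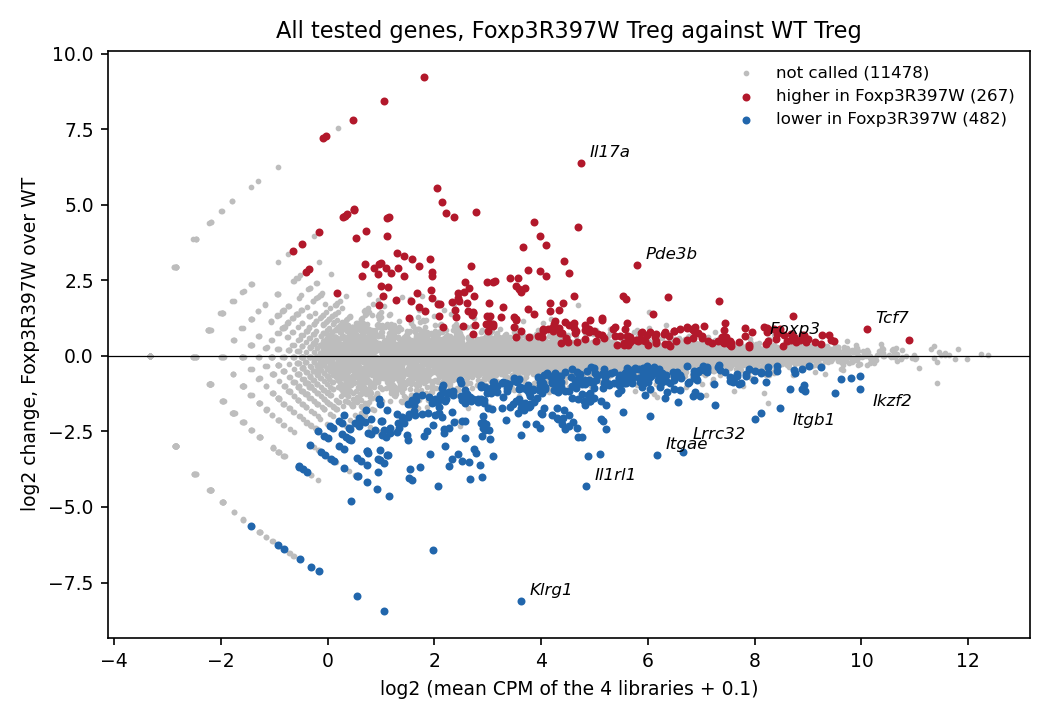
Each point is 1 of the 12227 tested genes, with its mean level over the 4 libraries on the x axis (log2 of CPM + 0.1) and its log2 change, Foxp3R397W over WT, on the y axis. The 267 genes that rose are red and the 482 that fell are blue; Foxp3 itself lies near 0 among genes that did not pass.

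Most Treg core genes fell. Of 22 members tested, 17 fell, none rose and 5 did not pass, and the median log2 change was -1.10, against -0.006 over all tested genes. The count was 11 without Foxp3R397W library 1, without Foxp3R397W library 2 or without WT library 3, and 15 without WT library 4. Bulk RNA-seq cannot tell fewer cells of a type from less RNA per cell. Itgae (chr11:73090583-73147446), the gene of integrin CD103, which binds E-cadherin, had 14.5 and 12.3 CPM in Foxp3R397W Treg, against 135 and 125 CPM in WT Treg. This is 9.70-fold lower, with a log2 change of -3.28 ± 0.21 and an adjusted p of 4.19e-08 (edgeR). Nrp1, the neuropilin receptor found on thymus-derived Treg, had 117 and 119 CPM in Foxp3R397W Treg, against 437 and 445 CPM in WT Treg (log2 change -1.90 ± 0.18). Lrrc32, which encodes GARP and displays latent TGF-beta on the Treg surface, had 85.8 and 112 CPM in Foxp3R397W Treg, against 440 and 395 CPM in WT Treg. That difference was 4.21-fold, and for these 3 genes the groups lay far apart relative to the spread within them.

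Helios, the interleukin-2 receptor and CTLA-4 fell by smaller factors. Ikzf2, which encodes Helios, had 597 and 683 CPM in Foxp3R397W Treg, against 1324 and 1397 CPM in WT Treg (2.13-fold lower, edgeR adjusted p = 0.0102). Il2ra, the alpha chain of the interleukin-2 receptor, had 348 and 310 CPM in Foxp3R397W Treg, against 668 and 604 CPM in WT Treg (log2 change -0.95 ± 0.22). Il2rb, its beta chain, had 441 and 423 CPM in Foxp3R397W Treg, against 1063 and 973 CPM in WT Treg (log2 change -1.24 ± 0.19). Ctla4, the inhibitory receptor that takes up the costimulatory ligands CD80 and CD86, had 609 and 553 CPM in Foxp3R397W Treg, against 942 and 1019 CPM in WT Treg (1.69-fold lower, edgeR adjusted p = 0.0242). Both mutant libraries were below both WT libraries for these 4 genes, as they were for 26.3% of all tested genes. The calls of Ikzf2 and Ctla4 ended when any 1 of the 4 libraries was left out, and that of Il2ra ended without Foxp3R397W library 1, Foxp3R397W library 2 or WT library 3. Core members that did not pass included, besides Foxp3, Rgs1 with 539 and 502 CPM in Foxp3R397W Treg and 635 and 686 CPM in WT Treg, and Nt5e, the ectonucleotidase CD73, with 421 and 276 CPM in Foxp3R397W Treg and 426 and 399 CPM in WT Treg.

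**Figure D2:**
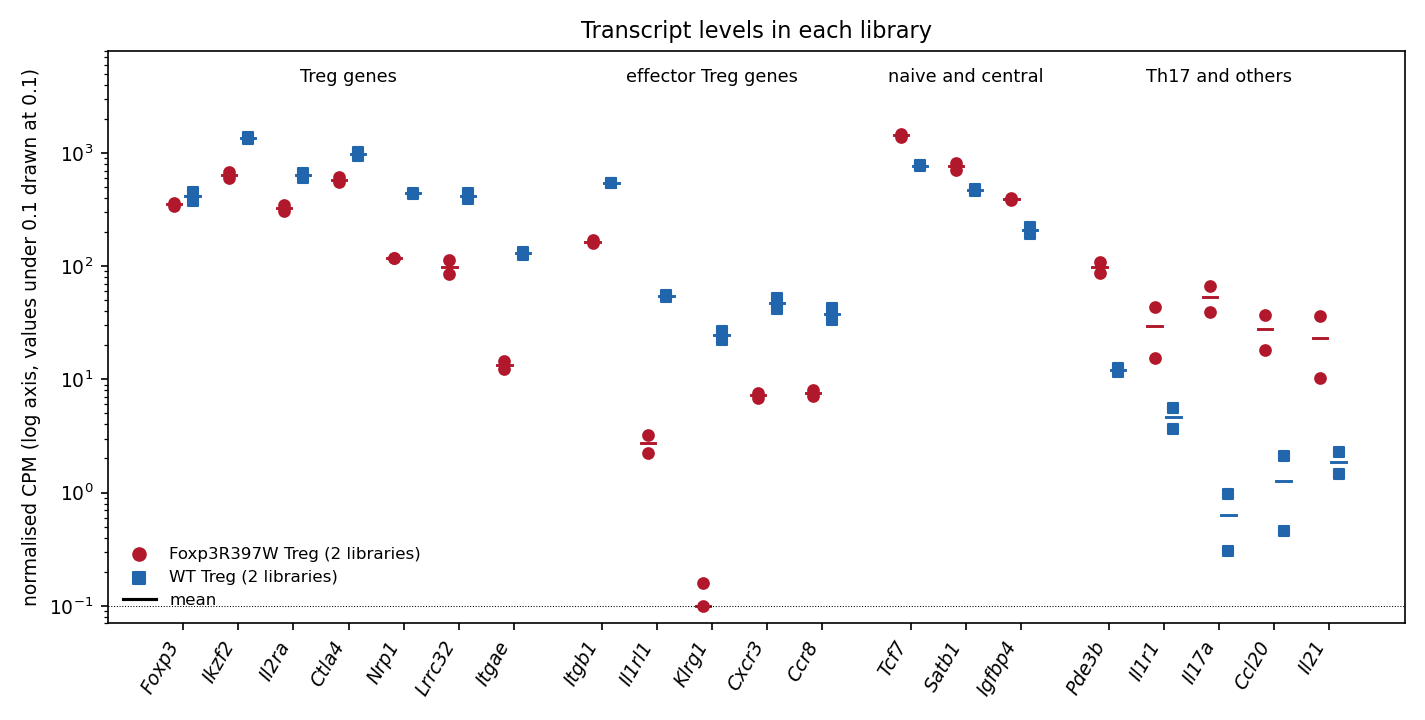
Normalised CPM of named genes in each library on a log axis, with Foxp3R397W Treg as red circles on the left and WT Treg as blue squares on the right of each gene, and short lines for the mean of 2 libraries. Foxp3 differs little, Itgae sits at 12.3 and 14.5 CPM in Foxp3R397W Treg below 125 and 135 CPM in WT Treg, and Il17a at 39.4 and 66.6 CPM in Foxp3R397W Treg above 0.31 and 0.96 CPM in WT Treg. A value under 0.1 CPM is drawn at 0.1.

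Fewer genes of the TNF receptor family and of the IL-2 response passed. Of 13 tested TNF receptor superfamily genes, 4 fell and none rose, namely Tnfrsf4 (OX40), Tnfrsf8 (CD30), Tnfrsf9 (4-1BB) and Tnfrsf18 (GITR). Tnfrsf9 had 49.5 and 47.6 CPM in Foxp3R397W Treg, against 150 and 132 CPM in WT Treg (log2 change -1.54 ± 0.18). Tnfrsf18 had 108 and 101 CPM in Foxp3R397W Treg, against 217 and 180 CPM in WT Treg (log2 change -0.93 ± 0.20). Of 20 IL-2 and STAT5 signalling genes, 4 fell and none rose, the 2 receptor chains above with Cish and Pim1, both induced by STAT5. That count was 1 without Foxp3R397W library 1, without Foxp3R397W library 2 or without WT library 3. The count of TNF receptor genes was 2 without Foxp3R397W library 2 or without WT library 3. Cish had 129 and 139 CPM in Foxp3R397W Treg, against 261 and 212 CPM in WT Treg. The calls of Cish and Tnfrsf18 ended without either mutant library or without WT library 3, that of Tnfrsf8 without Foxp3R397W library 2 or WT library 3, and that of Pim1 without any 1 of the 4 or without the expression filter. Jak1, a kinase of the same receptor, had 1046 and 1111 CPM in Foxp3R397W Treg and 1030 and 1047 CPM in WT Treg and did not pass.

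All but 1 of the suppressor molecules that passed fell. Of 18 tested, 8 fell and 1 rose, with a median log2 change of -0.98. The number that fell was 6 without Foxp3R397W library 1 and 4 without any one of the other libraries. Ebi3, a subunit of the inhibitory cytokine IL-35, had 2.72 and 2.05 CPM in Foxp3R397W Treg, against 12.2 and 13.7 CPM in WT Treg. Itgb8, an integrin chain that releases active TGF-beta, had 6.39 and 7.61 CPM in Foxp3R397W Treg, against 47.8 and 41.6 CPM in WT Treg (6.36-fold lower). Cd274, which encodes PD-L1, had 92.8 and 87.7 CPM in Foxp3R397W Treg, against 152 and 146 CPM in WT Treg. The member that rose, named after its values were seen, was Lag3, an inhibitory receptor that binds MHC class II. Lag3 had 373 and 131 CPM in Foxp3R397W Treg, against 69.2 and 74.2 CPM in WT Treg (log2 change 1.81 ± 0.46, edgeR adjusted p = 0.0232). Both mutant libraries were above WT, the first far more so, and the call ended without that library or without either WT library. Tigit, another inhibitory receptor, had 61.5 and 20.6 CPM in Foxp3R397W Treg, against 106 and 88.7 CPM in WT Treg and did not pass.

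Effector Treg genes included some of the largest decreases. Of 32 members, 15 fell and 1 rose, again Lag3, with a median log2 change of -1.02. The number that fell was 9 without Foxp3R397W library 2 or without WT library 3, and 10 without WT library 4. Klrg1, a lectin-like receptor of terminally differentiated effector Treg, had 0.16 and 0 CPM in Foxp3R397W Treg, against 22.3 and 26.7 CPM in WT Treg. Over both libraries of a group this was 1 read in Foxp3R397W Treg, a count ratio of 320-fold with a 95% exact interval of 57.0 to 12670 that covers counting error only. Il1rl1, which encodes the IL-33 receptor ST2 of tissue Treg, had 2.24 and 3.22 CPM in Foxp3R397W Treg, against 53.5 and 55.6 CPM in WT Treg (19.8-fold lower, edgeR adjusted p = 3.58e-05). Itgb1, the integrin beta-1 chain, had 169 and 159 CPM in Foxp3R397W Treg, against 548 and 543 CPM in WT Treg (log2 change -1.73 ± 0.14). Cebpa, a basic leucine zipper factor best known from myeloid cells, had 1.76 and 0.44 CPM in Foxp3R397W Treg, against 15.3 and 11.2 CPM in WT Treg, and its call ended without Foxp3R397W library 2 or without WT library 3. Maf had 556 and 263 CPM in Foxp3R397W Treg and 257 and 244 CPM in WT Treg, Icos had 238 and 158 CPM in Foxp3R397W Treg and 285 and 279 CPM in WT Treg, and neither passed.

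Homing receptors and integrins moved unevenly. Of 33 tested, 9 fell and 1 rose, with a median log2 change of 0.02, near that of all genes. Cxcr3, the receptor that guides T cells to type 1 inflammation, had 6.87 and 7.61 CPM in Foxp3R397W Treg, against 52.4 and 41.8 CPM in WT Treg (6.49-fold lower). Ccr8, a chemokine receptor of tissue and tumour Treg, had 7.19 and 8.05 CPM in Foxp3R397W Treg, against 42.8 and 33.2 CPM in WT Treg (4.98-fold lower). Cxcr5, which guides follicular T cells to B cell areas, had 8.78 and 7.76 CPM in Foxp3R397W Treg, against 36.0 and 32.1 CPM in WT Treg (4.12-fold lower). The abundant integrin genes Itga4, Itgal and Itgb7 did not pass. Itgb7 had 867 and 856 CPM in Foxp3R397W Treg and 884 and 878 CPM in WT Treg. The member that rose, named after its values were seen, was Ccr1, with 3.83 and 3.37 CPM in Foxp3R397W Treg and 0.46 and 0.48 CPM in WT Treg. It did not pass without Foxp3R397W library 1 or without either WT library.

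All naive and central T cell genes that passed rose. Of 23 tested, 11 rose and none fell, with a median log2 change of 0.36, and 4 rose without WT library 3 and 7 without WT library 4. Tcf7, which encodes TCF-1 and preserves naive and memory T cells, had 1470 and 1396 CPM in Foxp3R397W Treg, against 782 and 761 CPM in WT Treg (log2 change 0.89 ± 0.11, edgeR adjusted p = 6.54e-05). Satb1, a chromatin organiser repressed by Foxp3 in Treg, had 713 and 817 CPM in Foxp3R397W Treg, against 462 and 477 CPM in WT Treg (log2 change 0.70 ± 0.13). Igfbp4, an insulin-like growth factor binding protein of naive T cells, had 385 and 397.4 CPM in Foxp3R397W Treg, against 223 and 192 CPM in WT Treg, a call that ended without WT library 4. Bach2, which restrains effector differentiation, had 253 and 280 CPM in Foxp3R397W Treg, against 205 and 210 CPM in WT Treg (log2 change 0.36 ± 0.10, edgeR adjusted p = 0.0409), a call that ended without Foxp3R397W library 2, without either WT library or without the expression filter. The homing gene S1pr1 and its regulator Klf2 did not pass.

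The same held for genes that Foxp3 is known to hold down in Treg. Of 22 in this list, 10 rose and none fell, with a median log2 change of 0.66, and 6 rose without WT library 3. The lists share members, so the same call can count in several of them. Tcf7 is also in the naive and central list, Il17a in the Th17 and cytokine lists, and Cd40lg in the Tfh and cytokine lists. Pde3b, a phosphodiesterase that degrades cyclic AMP, had 87.2 and 110 CPM in Foxp3R397W Treg, against 12.7 and 11.7 CPM in WT Treg. Its rise of 8.07-fold had the lowest p of the list (log2 change 3.01 ± 0.18, edgeR adjusted p = 2.54e-08). For orientation, Pde3b averaged 11.3 CPM in eTreg and 26.9 CPM in cTreg, against 249 CPM in Teff and 322 CPM in Tnaive. Cd40lg, the ligand by which helper T cells activate B cells, had 57.0 and 76.0 CPM in Foxp3R397W Treg, against 29.6 and 32.9 CPM in WT Treg (log2 change 1.09 ± 0.15). Bhlhe40, a basic helix-loop-helix factor of activated T cells, had 157 and 149 CPM in Foxp3R397W Treg and 489 and 423 CPM in WT Treg and did not pass (edgeR adjusted p = 0.0549).

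Of the lists examined, Th17 genes had the largest share that rose. Of 11 tested, 6 rose and none fell, with a median log2 change of 0.73. Without Foxp3R397W library 1 the count was 3, as it also was without WT Treg library 3, and it was 4 without WT library 4. Il17a (chr1:20730905-20734496), the defining Th17 cytokine, had 66.6 and 39.4 CPM in Foxp3R397W Treg, against 0.31 and 0.96 CPM in WT Treg (log2 change 6.37 ± 0.60, edgeR adjusted p = 3.58e-05). Its neighbour Il17f had 5.43 and 2.78 CPM in Foxp3R397W Treg, against 0.15 and 0.16 CPM in WT Treg, a count ratio of 25.9-fold with a 95% exact interval of 6.81 to 219. Il1r1, the receptor for IL-1, had 43.3 and 15.4 CPM in Foxp3R397W Treg, against 3.67 and 5.62 CPM in WT Treg, and its call ended without Foxp3R397W library 1, without WT library 3 or when only the 4 libraries compared were fitted. These 3 genes were all higher in the first mutant library than in the second. Both mutant libraries were above both WT libraries, as they were for 23.8% of all tested genes.

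In the sorted WT populations Il17a had at most 1.47 CPM in any library, with a mean of 0.048 CPM in eTreg and 1.33 CPM in Teff. Stat3, Irf4 and Rora, factors that Th17 cells share with other effector cells, did not pass. Irf4 had 161 and 135 CPM in Foxp3R397W Treg and 151 and 140 CPM in WT Treg, and Rora had 120 and 90.9 CPM in Foxp3R397W Treg and 146 and 146 CPM in WT Treg.

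The 14 called genes with the largest increases, Il17a among them (each averaged 5 CPM or more in Foxp3R397W Treg), included a chemokine and a cytokine. Ccl20, the ligand of CCR6, had 37.2 and 18.3 CPM in Foxp3R397W Treg, against 0.46 and 2.09 CPM in WT Treg (log2 change 4.45 ± 0.57). The Ccl20 call ended when only the 4 libraries compared were fitted (edgeR adjusted p = 0.122), as did those of Il21 and Blk, which also ended with limma voom. Il21, a cytokine of follicular helper and Th17 cells, had 36.3 and 10.3 CPM in Foxp3R397W Treg, against 2.29 and 1.45 CPM in WT Treg, and its call ended without the first mutant library. Cd163l1, a scavenger receptor of gamma-delta T cells, had 8.31 and 7.47 CPM in Foxp3R397W Treg, against 0.31 and 0 CPM in WT Treg, a count ratio of 50.2-fold with a 95% exact interval of 13.6 to 420.5. Blk, a Src-family kinase of B cells and IL-17-producing gamma-delta T cells, had 11.02 and 2.34 CPM in Foxp3R397W Treg, against 0.46 and 0.96 CPM in WT Treg, and its call ended without the first mutant library or without either WT library. The part of other cells in these levels was not tested.

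Enzymes and receptors were also among them. Ggt5, a gamma-glutamyl enzyme that converts leukotriene C4, had 32.3 and 30.2 CPM in Foxp3R397W Treg, against 1.53 and 3.37 CPM in WT Treg (12.8-fold higher, edgeR adjusted p = 7.86e-08). Vdr, the vitamin D receptor, had 50.9 and 25.8 CPM in Foxp3R397W Treg, against 3.51 and 5.14 CPM in WT Treg (log2 change 3.15 ± 0.47), a call that ended when only the 4 libraries compared were fitted (edgeR adjusted p = 0.0802). Mstn, which encodes myostatin, had 18.8 and 7.17 CPM in Foxp3R397W Treg, against 0.46 and 0.48 CPM in WT Treg. Lpar3, a lysophosphatidic acid receptor, had 9.10 and 4.39 CPM in Foxp3R397W Treg and 0 reads in both WT libraries, which makes it at least 28.3-fold higher with 3 reads over the WT group as the floor. Alpk2 had 108 reads over both mutant libraries and 3 over both WT libraries, a count ratio of 35.1-fold with a 95% exact interval of 11.7 to 173. Dlg2, Myof, Daw1 and Lrrc75b completed the 14 genes, with log2 changes of 4.75, 4.60, 3.96 and 3.23.

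Among abundant genes the changes were smaller. Dgka, a diacylglycerol kinase that dampens T cell receptor signalling, had 2099 and 2404 CPM in Foxp3R397W Treg, against 1554 and 1587 CPM in WT Treg (log2 change 0.52 ± 0.09). Ly6e, a GPI-anchored surface protein, had 688 and 662 CPM in Foxp3R397W Treg, against 1130 and 1094 CPM in WT Treg (log2 change -0.72 ± 0.12). Ahnak, a large scaffold protein, had 818 and 735 CPM in Foxp3R397W Treg, against 1193 and 1273 CPM in WT Treg, and its call ended without any 1 of the 4 libraries.

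The 14 called genes with the largest decreases by the same rule included Klrg1, Il1rl1 and Cebpa. All 14 were at least 2-fold higher in sorted eTreg than in cTreg, as were 1444 of the 12227 tested genes. This was not particular to genes that fell. Among the 14 largest increases, Ccl20, Daw1, Cd163l1, Alpk2, Il21, Blk, Vdr and Dlg2 were also at least 2-fold higher in eTreg. Ggt5 was at least 2-fold higher in cTreg. Pcyt1b, an enzyme of phosphatidylcholine synthesis, had 0.48 and 0.29 CPM in Foxp3R397W Treg, against 7.49 and 8.03 CPM in WT Treg (log2 change -4.30 ± 0.47). Slc7a10, an amino acid transporter, had 0 and 0.15 CPM in Foxp3R397W Treg, against 8.25 and 6.91 CPM in WT Treg, a count ratio of 99.4-fold with a 95% exact interval of 17.4 to 3967. Nid2, a basement membrane protein, had 0 and 0.59 CPM in Foxp3R397W Treg, against 5.80 and 4.66 CPM in WT Treg. Ccl5, the chemokine RANTES, had 0.96 and 0.73 CPM in Foxp3R397W Treg, against 11.8 and 15.7 CPM in WT Treg (log2 change -4.01 ± 0.49). Plekhg3, Ces2c, Tshz2, Noxa1, Ctnnd1, Sema6d and Bicd1 fell by 3.47 to 4.11 on the log2 scale, with the call of Tshz2 ending without any 1 of the 4 libraries and that of Ces2c without Foxp3R397W library 2. The calls of Tshz2 and Cebpa also ended with limma voom and without the expression filter.

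In the Th1 and Th2 lists more genes fell than rose, and most members did not pass. Of 17 Th1 genes, 6 fell, 1 rose and 10 did not pass, with a median log2 change of -0.34. Nkg7, a granule protein of cytotoxic cells, had 4.95 and 4.98 CPM in Foxp3R397W Treg, against 18.2 and 14.1 CPM in WT Treg. Of 12 Th2 genes, 4 fell, none rose and 8 did not pass, with a median of -0.49. Gata3, which directs Th2 cells and supports effector Treg, had 130 and 171 CPM in Foxp3R397W Treg, against 274 and 287 CPM in WT Treg (log2 change -0.89 ± 0.15). Areg, a growth factor of tissue Treg, had 4.63 and 4.39 CPM in Foxp3R397W Treg, against 22.9 and 19.9 CPM in WT Treg, and its call ended without any 1 of the 4 libraries, without the expression filter, with DESeq2 and with limma voom. Of 14 Tfh genes, 4 rose and 1 fell, namely Il21, Cd40lg, Il6st and, named after its values were seen, Pou2af1, against Cxcr5. The number that rose was 1 without Foxp3R397W library 1 and 2 without WT library 4, and the call of Il6st ended in both cases. The 23 cytokine genes split into 4 that rose and 3 that fell, among them Csf1, with 7.51 and 6.15 CPM in Foxp3R397W Treg and 37.7 and 35.5 CPM in WT Treg.

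Transcription factor genes of the Foxp3 and BATF complexes changed in part. Of 24 Ikaros family and Foxp3 partner genes, 4 rose (Ikzf1, Satb1, Lef1 and Tcf7) and 4 fell (Ikzf2, Ikzf4, Gata3 and Gata1), with Lef1, Ikzf4 and Gata1 named after their values were seen. Of those that fell, 1 passed without Foxp3R397W library 1, without Foxp3R397W library 2 or without WT library 3. Ikzf1, which encodes Ikaros, had 802 and 871 CPM in Foxp3R397W Treg, against 576 and 605 CPM in WT Treg (log2 change 0.50 ± 0.09). Batf had 46.3 and 32.2 CPM in Foxp3R397W Treg, against 56.2 and 49.6 CPM in WT Treg, and did not pass (log2 change -0.43 ± 0.28, edgeR adjusted p = 0.525). Of 21 BATF, AP-1 and IRF factor genes, Bach2 rose and Irf5 fell. Junb had 1391 and 2310 CPM in Foxp3R397W Treg and 2447 and 2454 CPM in WT Treg, with the mutant libraries far apart. Of 18 NF-kB genes, Rel and Icam1 fell. The calls of Irf5 and Icam1 ended without Foxp3R397W library 2, and that of Icam1 also without either WT library. Rel, the c-Rel subunit needed for Treg formation, had 74.1 and 100.5 CPM in Foxp3R397W Treg, against 136 and 153 CPM in WT Treg (log2 change -0.73 ± 0.13), and its call ended without Foxp3R397W library 1.

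Survival and metabolic lists held few called genes. Of 20 apoptosis and survival genes, 5 fell and none rose, with 3 that fell without either mutant library and 2 without WT library 3. Bcl2l1, the survival factor BCL-XL, had 31.0 and 22.3 CPM in Foxp3R397W Treg, against 52.5 and 48.5 CPM in WT Treg, while Bcl2 had 565 and 611 CPM in Foxp3R397W Treg and 548 and 554 CPM in WT Treg and did not pass. Of 17 glycolysis genes, 1 fell, the glucose transporter gene Slc2a3, with 69.0 and 82.4 CPM in Foxp3R397W Treg, against 130 and 149 CPM in WT Treg. None of 22 oxidative phosphorylation, 22 ribosomal protein or 26 cell cycle genes passed in either direction. Of 27 T cell receptor signalling and immediate early genes, 2 rose, among them Dusp2, and none fell. Of 29 interferon response genes, Gbp3 and Oas1a fell. Of 12 adenosine and cyclic AMP genes, Entpd1, the ectonucleotidase CD39, and Crem fell and Pde3b rose. Of 18 amino acid and lipid genes, 1 fell, Slc7a10. The calls of Oas1a and Crem ended without any 1 of the 4 libraries and with limma voom, and those of Dusp2 and Entpd1 without Foxp3R397W library 2 or either WT library. The Entpd1 call also ended when only the 4 libraries compared were fitted.

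Lists of other cell types held a few called genes. Of 7 tested B cell markers, 4 fell and Blk rose. Cd74, the invariant chain of MHC class II, had 7.51 and 8.64 CPM in Foxp3R397W Treg, against 46.7 and 38.5 CPM in WT Treg. Cd22 and Cd79b also fell, as did H2-Ab1, which is named after its values were seen. Cd79a had 2.08 and 1.46 CPM in Foxp3R397W Treg and 1.37 and 0.48 CPM in WT Treg and did not pass. Of 11 CD8 and NK markers, Nkg7 and Gzma fell, and of 9 stromal markers Igfbp7 rose. None of 16 myeloid markers passed. The number of B cell markers that fell was 2 without Foxp3R397W library 1 and 1 without Foxp3R397W library 2. The calls of Cd79b and Gzma ended without either mutant library or without WT library 3, that of Igfbp7 without Foxp3R397W library 1 or either WT library, and that of Cd22 without Foxp3R397W library 2. Without the expression filter the calls of Gzma and Igfbp7 ended, and that of Gzma also with DESeq2. The part of B cells in the fall of Cd74, Cd22 and Cd79b was not tested.

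**Figure D3:**
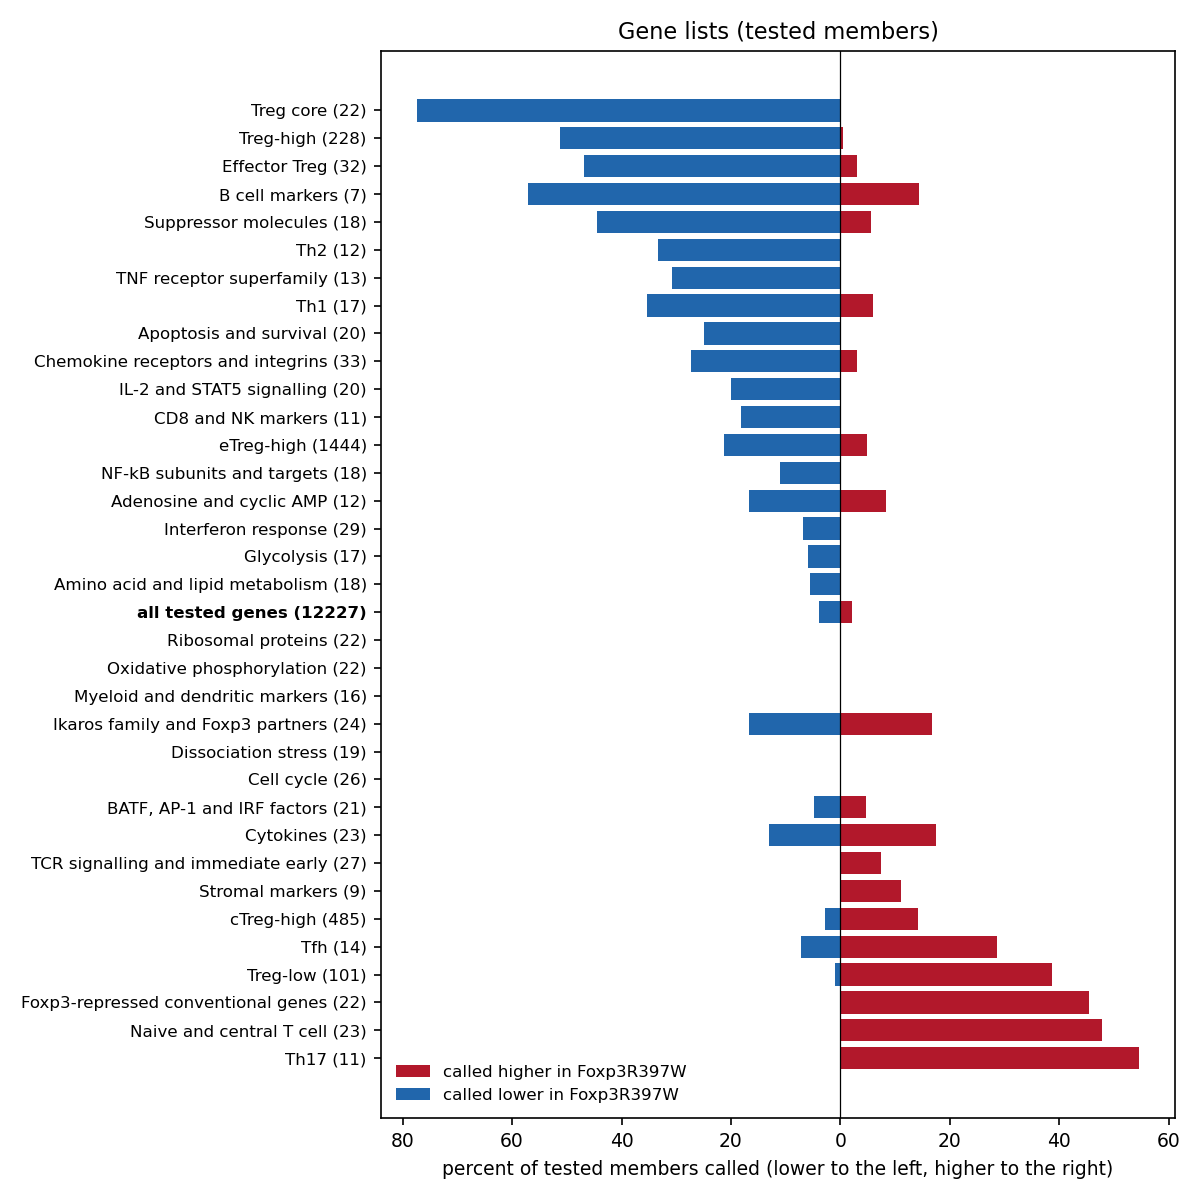
Percent of tested members of each list that fell (blue, to the left) or rose (red, to the right) in Foxp3R397W Treg, with the number tested in brackets. Treg core genes reach 77.3% that fell and Th17 genes 54.5% that rose, beside 3.94% and 2.18% of all tested genes.

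The changed genes were then placed on the axis between central and effector Treg, using sorted WT populations that share no library with the R397W comparison. Between eTreg and cTreg, 2302 genes (18.8%) were higher in eTreg and 1498 (12.3%) were lower. Of the 482 genes that fell in Foxp3R397W Treg, 373 (77.4%) were among those higher in eTreg, which is 16.2% of that set. Of the 267 that rose, 117 (43.8%) were among those higher in cTreg, while 78 (29.2%) were higher in eTreg. Taken the other way, 1444 genes were at least 2-fold higher in eTreg, and of these 307 (21.3%) fell and 69 (4.78%) rose in Foxp3R397W Treg, with a median log2 change of -0.60. Of 485 genes at least 2-fold higher in cTreg, 69 (14.2%) rose and 14 (2.89%) fell, with a median of 0.25.

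Genes that separate Treg from conventional cells in the same populations were examined likewise. A set of 228 genes was at least 2-fold higher in Treg both in cTreg against Tnaive and in eTreg against Teff, where 7.91% and 8.21% of tested genes were higher in Treg. Of these 228, 117 (51.3%) fell and 1 (0.44%) rose in Foxp3R397W Treg, with a median log2 change of -0.97. The median of the same genes was 2.96 in cTreg against Tnaive and 1.94 in eTreg against Teff. Of 101 genes lower in Treg in both contrasts, where 4.29% and 7.26% of tested genes were lower, 39 (38.6%) rose and 1 (0.99%) fell, with a median of 0.91. The shares of these sets were not tested against each other.

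**Figure D4:**
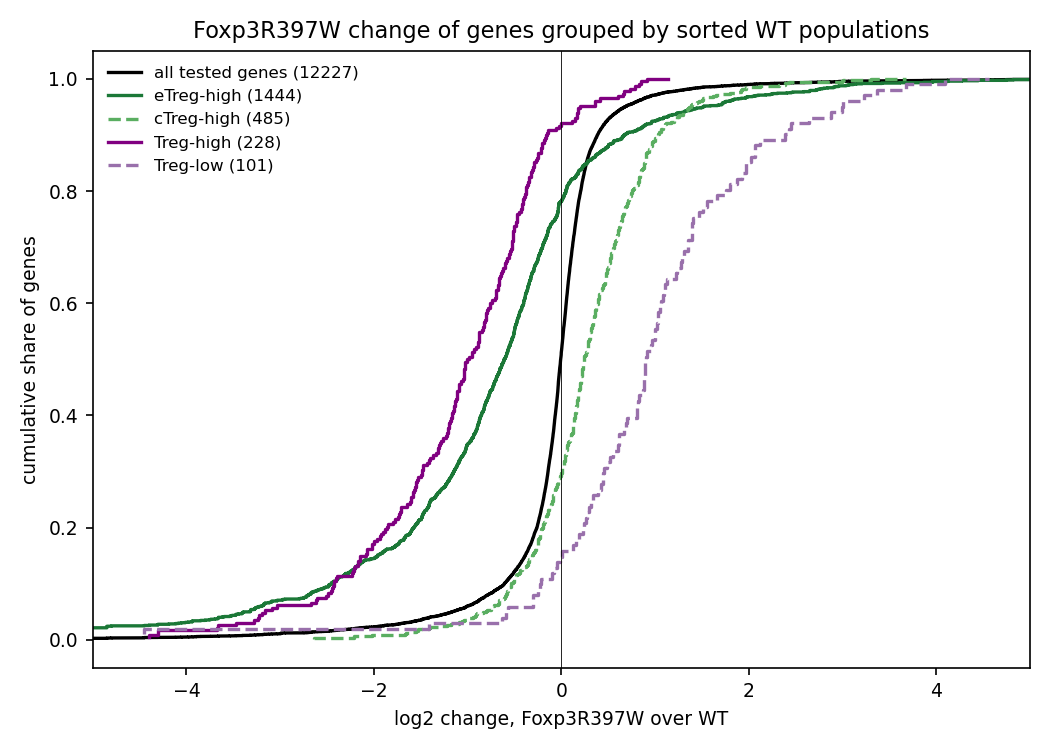
Cumulative share of genes (y axis) at or below each log2 change, Foxp3R397W over WT (x axis), for all tested genes in black and for 4 gene sets from sorted WT populations. Treg-high genes (median -0.97) and eTreg-high genes (-0.60) lie left of all genes, cTreg-high genes (0.25) and Treg-low genes (0.91) right of them.

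Foxp3KO Treg, with the Foxp3fs101 allele, shared many of the called genes. In that comparison 320 genes rose (2.62% of those tested) and 781 fell (6.39%). Of the 482 genes that fell in Foxp3R397W Treg, 379 also fell in Foxp3KO Treg, which is 78.6% of the first set and 48.5% of the second. Of the 267 that rose, 170 also rose, which is 63.7% and 53.1% of each set, and none of the 749 changed in opposite directions by call. Across 8551 genes with at least 10 CPM the Pearson correlation of both sets of log2 changes was 0.81 and Spearman's rho 0.615, a description across genes, which are not independent replicates. Among the 749 called genes 729 (97.3%) had the same sign in both comparisons, and the Foxp3KO change was the smaller one for 572, with a median ratio of 0.79. In Foxp3KO Treg, 18 of 22 Treg core genes and 22 of 32 effector Treg genes fell, 13 of 23 naive and central genes rose, and of 11 Th17 genes 5 rose and 1 fell. The 749 genes were chosen by their R397W values, so the ratio is a description. The Foxp3KO set had 26321134 to 34613707 reads per library, and the part of depth in the number of calls was not tested. Its library names also differ in style from those of the R397W set, and the labels of the series name different library kits. The part of kit or run in this comparison was not tested.

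The difference between both alleles was tested directly and passed for 2 genes. These are 0.00818% of the tested genes in each direction, Foxp3 and Ccl5. An unadjusted edgeR p under 0.05 was found for 407 genes, fewer than would be expected if no gene differed. That low count does not show that the alleles act alike, since the test can miss true differences. In simulated data this test of the difference passed for 26 of 50 genes changed by 1 on the log2 scale. The Foxp3 change was 1.36 ± 0.21 higher on the log2 scale in Foxp3R397W than in Foxp3KO (edgeR adjusted p = 0.0234). Ccl5 had 0.96 and 0.73 CPM in Foxp3R397W Treg and 11.8 and 15.7 CPM in their WT Treg, against 45.4 and 46.7 CPM in Foxp3KO Treg and 57.5 and 47.6 CPM in their WT Treg. Its difference of -3.82 ± 0.56 had an adjusted p of 0.0234 (edgeR). Both WT Treg pairs carry the same genotype in the labels and had different Ccl5 levels. The part of depth, library kit or run in that difference was not tested. Leaving out any 1 of the 8 libraries ended both calls, with adjusted p from 0.0549 to 0.305 for Ccl5 and from 0.0562 to 0.44 for Foxp3. The Ccl5 call also ended with limma voom (adjusted p = 0.202) and, in edgeR, without the expression filter (adjusted p = 0.0594), where another gene was the 1 called lower. The Foxp3 call held in both, with adjusted p of 0.0139 in limma voom and 0.00012 in edgeR. DESeq2 called 1 gene higher and 2 lower, with Foxp3 and Ccl5 among them.

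For the other genes the difference did not pass, and its intervals follow. Itgae changed by -3.28 in Foxp3R397W and by -3.02 in Foxp3KO, with an approximate 95% interval of -0.80 to 0.28 for the difference (log2). Ikzf2 changed by -1.09 in Foxp3R397W and by -1.35 in Foxp3KO, with an interval of -0.41 to 0.94. Tcf7 changed by 0.89 in Foxp3R397W and by 0.81 in Foxp3KO, with an interval of -0.23 to 0.39. Il17a changed by 6.37 in Foxp3R397W and by 5.78 in Foxp3KO, with an interval of -1.62 to 2.80. Some intervals lay away from 0 for genes that did not pass the correction. Among them were -2.07 to -0.87 for Nkg7 and -2.42 to -1.02 for Cd74, both lower in Foxp3R397W, and 1.14 to 4.44 for Il21, higher in Foxp3R397W. Of 26 cell cycle genes, none passed in Foxp3R397W Treg and 10 fell in Foxp3KO Treg, and no cell cycle gene passed the test of the difference.

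**Figure D5:**
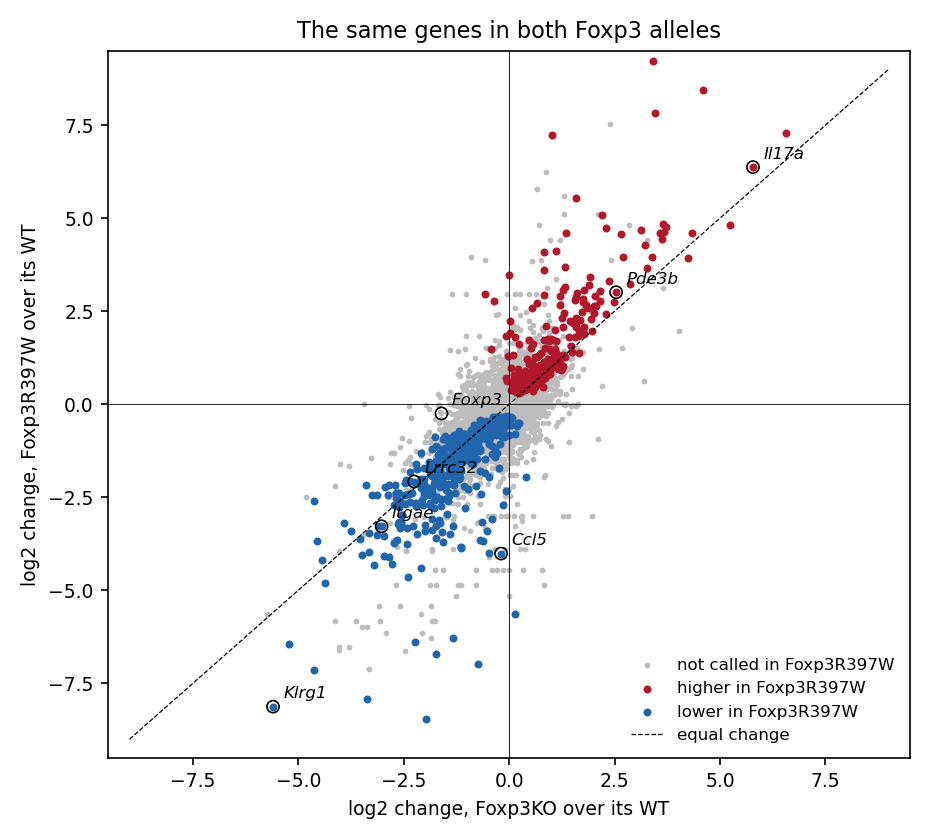
Log2 change in Foxp3KO Treg over its WT (x axis) against log2 change in Foxp3R397W Treg over its WT (y axis) for all tested genes, with genes that rose (red) or fell (blue) in Foxp3R397W. Most coloured points follow the line, while Foxp3 (-0.25 in Foxp3R397W and -1.60 in Foxp3KO) and Ccl5 (-4.01 in Foxp3R397W and -0.19 in Foxp3KO) stand off it; some named genes are ringed and the dashed line marks equal change.

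The BATF comparisons called fewer genes in each direction than Foxp3KO did, and they shared fewer called genes with Foxp3R397W. The part of the number called, and of depth, in this overlap was not tested. In BATFcKO Treg, 39 genes rose (0.319%) and 210 fell (1.72%). Of the 482 genes that fell in Foxp3R397W Treg, 94 also fell in BATFcKO Treg, 19.5% of the first set and 44.8% of the second. Of the 267 that rose, 5 also rose in BATFcKO Treg. Calls were opposite for some genes, of which 10 rose in Foxp3R397W and fell in BATFcKO and 6 fell in Foxp3R397W and rose in BATFcKO. In BATFKO Treg, 128 genes rose (1.05%) and 201 fell (1.64%), and 72 of those that fell also fell in Foxp3R397W Treg (14.9% of the R397W set and 35.8% of the BATFKO set). Of the 128 that rose in BATFKO Treg, 13 also rose in Foxp3R397W Treg (4.87% of the R397W set and 10.2% of the BATFKO set) and 21 fell there (4.36% of the R397W set and 16.4% of the BATFKO set). Another 15 genes rose in Foxp3R397W and fell in BATFKO. The correlation across the 8551 genes was 0.27 with BATFcKO and 0.09 with BATFKO (Spearman's rho 0.131 and -0.05). Some effector Treg genes fell in each of the 3, 15 of 32 in Foxp3R397W, 15 of 32 in BATFcKO and 14 of 32 in BATFKO, with 1 that rose in Foxp3R397W and 1 in BATFKO. Treg core genes did so in 17 of 22 in Foxp3R397W and in 3 of 22 in either BATF comparison, with 1 that rose in BATFKO.

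Single genes showed both kinds of pattern. Itgb1 changed by -1.73 in Foxp3R397W, -2.86 in BATFcKO and -2.98 in BATFKO (log2), and passed in each. Plekhg3, Pcyt1b and Nid2 likewise fell in all 3. Il1rl1 changed by -4.31 in Foxp3R397W but by -0.89 in BATFcKO, and the difference of -3.42 passed. Klrg1 changed by -7.09 in BATFcKO and by -0.74 in BATFKO, where it did not pass. Il2rb changed by -1.24 in Foxp3R397W, 0.28 in BATFcKO and -0.02 in BATFKO. Of the 11 tested Th17 genes, 6 rose and none fell in Foxp3R397W, none rose and 3 fell in BATFcKO, and 1 rose and 4 fell in BATFKO. The list as a whole was not tested for a difference between these comparisons. For Il17a, which had 0 reads in all 4 libraries of the BATFcKO comparison, the difference did not pass against BATFcKO (edgeR adjusted p = 1.0) and passed against BATFKO (edgeR adjusted p = 0.013). By the test of the difference, 118 genes (0.965%) were higher and 79 (0.646%) lower in Foxp3R397W than in BATFcKO, relative to their own WT, and 164 (1.34%) were higher and 221 (1.81%) lower than in BATFKO.

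Promoters of the changed genes were searched for 3 short motifs on both strands, in windows from 250 bases before to 50 bases after each start (RefSeq, GRCm38.p6). Of the genes that fell, 365 of 482 had a window, and 34 of these (9.32%) held the AP-1 motif TGANTCA. The same motif stood in 7.37% of the genes that rose and in 548 of 9339 tested genes with a window (5.87%). The forkhead motif TGTTTAC stood in 3.56% of the genes that fell, 4.15% of those that rose and 3.15% of all tested genes. Over all 32851 promoter windows, the AP-1 motif stood in 7.81% and the forkhead motif in 3.65%. The ETS motif CCGGAAG stood in 9.32% of the genes that fell, 11.1% of those that rose and 20.7% of all tested genes. These shares describe letters in a window and were not tested. One window is shown for a gene that rose and one for a gene that fell, with matches in capitals: Il17a (chr1:20730655-20730954, plus strand) holds 1 AP-1 match, and the second start of Il1rl1 (chr1:40439379-40439678, plus strand) holds 1 forkhead match.
Il17a: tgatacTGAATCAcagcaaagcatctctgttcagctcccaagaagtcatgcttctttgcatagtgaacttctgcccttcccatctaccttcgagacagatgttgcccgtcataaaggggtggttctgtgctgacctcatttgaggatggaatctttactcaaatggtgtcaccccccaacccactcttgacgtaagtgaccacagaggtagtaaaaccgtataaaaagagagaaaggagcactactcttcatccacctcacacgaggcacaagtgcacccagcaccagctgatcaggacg
Il1rl1: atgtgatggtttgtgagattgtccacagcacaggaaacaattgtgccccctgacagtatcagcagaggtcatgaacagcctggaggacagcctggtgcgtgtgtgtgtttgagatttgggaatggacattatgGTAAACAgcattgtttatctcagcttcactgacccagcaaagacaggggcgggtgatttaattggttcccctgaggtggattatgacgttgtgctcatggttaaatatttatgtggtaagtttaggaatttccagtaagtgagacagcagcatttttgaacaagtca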

How the data were processed

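RNA-seq was done on polyA RNA of freshly sorted T cells, per the labels' protocols. Alignment with STAR 2.6.1c to mm10 is given per the submitters' processing notes. The counter and whether counting used strand are not given in the sources used here, so genes that overlap on opposite strands are uncertain. The authors deposited whole-number read counts per gene for 24411 genes, and 4 columns of the tables matched no sample and were not used.

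The 26 libraries in 13 groups of 2 were fitted together in edgeR 4.0.16 (R 4.3.3; TMM scaling, expression filter, robust quasi-likelihood fit), which kept 12227 genes. P-values were Benjamini-Hochberg adjusted over these, with 0.05 as threshold. The SE of a log2 change was taken as its size over the square root of its F statistic. Library totals of 6036966 to 6831764 reads limit precision for genes under about 1 CPM. Count intervals cover counting error only, since no molecular identifiers were used. Code was tested on simulated data.

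Members and lists were chosen with earlier results of these data known. Genes were named by rule: the 14 called genes with the largest change in each direction (mean at least 5 CPM in the higher group), the 6 with the largest CPM difference, the leading differences from other genotypes, and from each list up to 4 called and 3 abundant uncalled members. Alternatives used DESeq2 1.42.0, limma 3.58.1, other scaling, no filter, fewer libraries and a replicate block. Numbers shared within the germline, YFP and sorted sets pair their libraries only in part, with correlations of deviations from 0.0801 to 0.571, and the R397W libraries share none with their controls. Some genes that the naming rule takes are not reported here.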

Additional observations from a re-analysis of the deposited data

Results flagged for a closer look

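The changes below differed between Foxp3R397W Treg and another genotype by a test of the difference itself (edgeR, adjusted over all tested genes), and each value is the log2 change in Foxp3R397W minus that in the other genotype. Against Foxp3KO, Foxp3 differed by 1.36 and Ccl5 by -3.82.

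Against BATFcKO, the difference was 11.03 for Miat, 9.11 for Havcr2, 6.51 for Mmp25, 5.98 for Gpr25 and 5.35 for Ttc39c. Miat changed by 1.74 in Foxp3R397W and by -9.29 in BATFcKO. Havcr2 itself passed in neither (edgeR adjusted p = 0.107 in Foxp3R397W and 0.0833 in BATFcKO). Mmp25 passed in BATFcKO (log2 change -5.12) but not in Foxp3R397W (edgeR adjusted p = 0.0848). Gpr25 passed in Foxp3R397W (log2 change 1.83) but not in BATFcKO (edgeR adjusted p = 0.101). Miat, a long noncoding RNA, had 41.2 and 24.3 CPM in Foxp3R397W Treg, against 9.17 and 10.4 CPM in WT Treg, and its call there ended without Foxp3R397W library 1 or without either WT library. Ttc39c had 11.3 and 7.03 CPM in Foxp3R397W Treg, against 31.5 and 28.8 CPM in WT Treg, so it fell in both genotypes and fell further in BATFcKO. In the other direction the difference was -4.18 for Fam160a1, -3.42 for Il1rl1, -3.24 for Acvr1c, -3.24 for Dgat2 and -3.16 for Plagl1. Plagl1 had 7.19 and 8.05 CPM in Foxp3R397W Treg, against 32.4 and 32.0 CPM in WT Treg, while it rose by 1.09 on the log2 scale in BATFcKO.

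Against BATFKO, the difference was 9.19 for Il17a, 8.94 for Gpr25, 8.20 for Cd163l1, 6.54 for Miat and 6.29 for Tox2. It was -7.38 for Klrg1, -6.76 for Pparg, -5.86 for Ptrf, -5.63 for Glt28d2 and -5.03 for Hymai. Part of some differences came from the change in BATFKO. Tox2 and Ptrf did not pass in Foxp3R397W (edgeR adjusted p = 0.497 and 0.0533) and changed by -7.04 and 3.21 in BATFKO. Miat changed by 1.74 in Foxp3R397W and -4.8 in BATFKO, Gpr25 by 1.83 and -7.11, and Pparg by -3.27 and 3.49. Il17a, Cd163l1, Klrg1, Glt28d2 and Hymai passed in Foxp3R397W and not in BATFKO. Fitted values of genes with few or no reads in a group depend on the prior count and are not bounds.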

How the results depend on the processing

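Precision is limited by 2 libraries a group, and the common dispersion was shared over all groups. No paired analysis was possible because the R397W libraries (numbers 1 and 2) and their WT libraries (3 and 4) share no number; a replicate block within the other sets changed only the shared spread and called 845 genes higher and 1058 lower, against 267 and 482, with 266 and 478 of these among them. Fitting only the 4 libraries gave 522 and 773, and testing against a 1.5-fold minimum gave 70 and 133. Leaving out 1 library gave 109 to 194 higher and 186 to 264 lower. For the difference from Foxp3KO (1 higher and 1 lower), the replicate block gave 13 and 16, the compared libraries alone 2 and 5, DESeq2 2 lower, limma voom 0 lower, and leaving out 1 library 0 in each direction. For BATFcKO (118 higher, 79 lower), the replicate block gave 486 and 508, DESeq2 160 lower, the compared libraries 207 lower, and leaving out 1 library 63 to 135 and 41 to 69. For BATFKO (164 higher, 221 lower), the replicate block gave 693 and 785, the compared libraries 24 and 40, and leaving out 1 library 91 to 254 and 109 to 319. The cause was not tested. Of 100 named genes called in R397W, 59 kept their call in every alternative run, 41 lost it in at least 1, and 0 changed sign.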

Other observations

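Some called genes lie next to each other. Among tested genes within 50000 bases that do not overlap (GENCODE M21), 225 pairs held at least 1 gene that rose in Foxp3R397W Treg, and in 15 of these (6.67%) both rose. In 27 of 425 pairs (6.35%) with at least 1 gene that fell, both fell. The share for pairs of genes that are not neighbours was not computed, so whether neighbours change together more often was not tested. Pairs with named genes, chosen after their values were seen, were Il17a with Il17f (42649 bases apart), Ccl20 with Daw1 (40584 bases apart), Il1r1 with Il1rl2, Tnfrsf4 with Tnfrsf18 and Cd274 with Pdcd1lg2. Il1rl2, an IL-36 receptor chain, had 9.42 and 7.76 CPM in Foxp3R397W Treg, against 2.14 and 1.93 CPM in WT Treg. Pdcd1lg2, which encodes PD-L2, had 8.46 and 5.12 CPM in Foxp3R397W Treg, against 28.1 and 21.4 CPM in WT Treg.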
